A study of Mus musculus with 6 samples.

Results

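The genes described here encode the conjugation enzymes of 3 superfamilies, the glutathione S-transferases (GST), the UDP-glucuronosyltransferases (UGT) and the sulfotransferases (SULT). Members were the genes of the count table whose names begin with Gsta, Gstm, Gsto, Gstp, Gstt, Gstk, Mgst, Ugt1, Ugt2 or Sult and a digit, pseudogene names ending in -ps excluded. The rule used gene names and no measured value, though the families were picked with earlier results of these data known. It gave 65 of 21959 genes, of which 25 belong to the GST and microsomal GST families, 19 are UGT genes and 21 are Sult genes.

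RNA was measured in 2 lines of mouse gastric adenocarcinoma, 3 libraries each. MPC is the parental line, called MTC in the paper, and MPC-PTX, called MTC-R there, was derived from it over more than 30 cycles of paclitaxel (PTX), a drug that stabilises microtubules. Both lines carry the labelled genotype CDH1-/-;Trp53-/- and the same batch number, and both were grown in the same medium. The study's methods trace them to C57BL/6J gastric organoids in which tamoxifen-activated Mist1-CreER removed the floxed alleles, passed through a BALB/c nude mouse. Each line was picked as 1 clone, so differences between the clones and differences tied to resistance cannot be told apart. The labels do not say whether the libraries of a line came from separate cultures, nor whether PTX was present at harvest, so p-values measure the spread between these libraries, which may be technical. Exon-level reads were not used here, so counts of Cdh1 (2217 to 3068 per library) and Trp53 (63 to 142 per library) do not check a deletion of part of either gene.

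Conjugation enzymes attach a polar group to a reactive or lipophilic molecule, which can then be exported. Cytosolic GSTs (classes alpha, mu, omega, pi and theta, genes Gsta, Gstm, Gsto, Gstp and Gstt) couple glutathione to electrophiles, and the microsomal proteins Mgst1 to Mgst3 work in membranes on lipid peroxides and leukotrienes. UGTs use UDP-glucuronic acid and SULTs use the sulfate donor PAPS. These families are known best from liver and intestine, and many of their genes stand in tandem clusters of close paralogs.

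Promoter windows of 4 members are shown. Gstm2 fell, and Gstm5, at the far end of the same cluster, was not called. Gsto1 had the highest GST level in MPC, and the microsomal gene Mgst1 rose. The 4 windows do not stand for the other members. Each runs from 250 bases before to 50 bases after the RefSeq start (GRCm38.p6), written 5′ to 3′ on the gene's strand, at chr3:107986371-107986670 (minus strand) for Gstm2, chr3:107895604-107895903 (plus) for Gstm5, chr19:47854723-47855022 (plus) for Gsto1 and chr6:138140277-138140576 (plus) for the upstream start of Mgst1. Capitals mark matches, on either strand, to the antioxidant response element core TGACNNNGC, the xenobiotic response element core GCGTG or the AP-1 motif TGANTCA.
Gstm2: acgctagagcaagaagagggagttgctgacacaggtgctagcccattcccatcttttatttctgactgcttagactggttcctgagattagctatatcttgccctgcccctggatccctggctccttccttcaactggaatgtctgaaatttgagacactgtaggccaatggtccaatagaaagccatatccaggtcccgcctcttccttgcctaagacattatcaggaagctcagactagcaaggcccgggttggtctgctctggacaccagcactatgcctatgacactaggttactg
Gstm5: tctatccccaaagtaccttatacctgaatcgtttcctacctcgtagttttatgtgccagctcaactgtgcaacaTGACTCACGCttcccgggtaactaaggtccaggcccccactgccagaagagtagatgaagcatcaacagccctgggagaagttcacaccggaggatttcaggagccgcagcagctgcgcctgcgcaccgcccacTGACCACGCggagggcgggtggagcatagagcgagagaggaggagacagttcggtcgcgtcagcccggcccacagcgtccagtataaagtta
Gsto1: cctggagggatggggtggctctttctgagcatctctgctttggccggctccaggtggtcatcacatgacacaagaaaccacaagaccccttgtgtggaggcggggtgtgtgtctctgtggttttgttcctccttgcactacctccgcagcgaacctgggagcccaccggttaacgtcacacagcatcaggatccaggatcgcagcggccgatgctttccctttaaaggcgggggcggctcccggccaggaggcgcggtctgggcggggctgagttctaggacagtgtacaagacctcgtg
Mgst1: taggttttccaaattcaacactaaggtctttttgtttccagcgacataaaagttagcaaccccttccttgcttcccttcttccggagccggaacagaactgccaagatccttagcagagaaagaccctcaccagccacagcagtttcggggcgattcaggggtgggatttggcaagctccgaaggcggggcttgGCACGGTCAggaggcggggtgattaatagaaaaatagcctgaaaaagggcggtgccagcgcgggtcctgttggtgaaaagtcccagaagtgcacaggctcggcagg
The Gstm2 and Gsto1 windows held none of these letters. In Gstm5 the AP-1 match at -176 overlapped a GCGTG match at -171, and the TGACNNNGC match at -42 overlapped another at -38. The Mgst1 match to TGACNNNGC began at -56 and lay on the minus strand. The window of the downstream Mgst1 start held none. Among the other called members, Gsta3 (TGACNNNGC), Mgst3 (GCGTG) and Sult1b1 (GCGTG and TGANTCA) held matches and fell. Mgst2 (TGANTCA) held a match and rose. RefSeq windows were matched for 57 of the 65 members. The core TGACNNNGC occurred in 4 of their 68 windows (Gsta3, Gstm5, Gstm7 and Mgst1), against 12.4% of all 32851 windows. GCGTG occurred in 14 of 68 windows against 32.4%, and TGANTCA in 14 of 68 against 7.81%. Members with enough counts to be tested had 32 of these windows. Among them TGACNNNGC occurred in 4, GCGTG in 10 and TGANTCA in 6. For TGACNNNGC and GCGTG, these shares were close to those over all windows. The lower shares over the 68 windows thus came from members that were not tested. For TGANTCA, the shares among the 32 and the 68 windows were both above the 7.81% of all windows. That difference was not tested. A match is a description of letters, and no match says nothing about a factor.

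The libraries held 16574580 to 23148182 counts and 13897 to 14295 detected genes. The biological coefficient of variation was 17.9% in MPC and 3.01% in MPC-PTX. MPC replicate 3 stood apart. The mean chi-square per gene between its counts and those of MPC replicates 1 and 2 was 60 and 31.9, against 14.7 between MPC replicates 1 and 2. Its deviations from the mean of its line followed gene GC content with Spearman's rho -0.60 over 11776 genes, against 0.48 and 0.36 in the other MPC libraries. In MPC-PTX, rho was 0.28, -0.01 and -0.28. Deviations within a line sum to 0, so rho alone does not show which library differs. Counts of calls are also given without MPC replicate 3.

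Of the 65 members, 24 had no count in any library (14 Sult and 10 UGT genes), and 33, these included, had fewer than 10 counts over all 6 libraries. Only 25 passed the filter on low counts and were tested. For a gene at 0, the sequencing allowed up to 3 counts per line, which is 0.0501 CPM (counts scaled to a common library total) in MPC and 0.0487 CPM in MPC-PTX. Of the tested members, 20 lay above the filter's minimum of 0.494 CPM in every library of both lines. Sult1a1 and Sult1b1 passed only through MPC, and Gstp2 and Sult6b1 only through MPC-PTX.

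More conjugation enzyme genes were lower than higher in MPC-PTX. In edgeR's quasi-likelihood test, at an adjusted p under 0.05, 11 of the 25 tested members were lower and 2 were higher, while 12 did not pass. The shares over all 11795 tested genes were 15.6% lower and 14.1% higher, or 29.7% in either direction against 13 of the 25 members. With the further condition of an absolute log2 fold change above 1, 8 members were lower and 0 higher, beside 4.2% and 3.54% of all genes. The median log2 fold change was -0.53 over the tested members and 0.04 over all tested genes. Under the cut of the study's methods (absolute log2 fold change above 1 and unadjusted p under 0.05), 9 members were lower and 0 higher, beside 4.34% and 3.77%. Levels of the lines did not overlap for 17 of the 25 members, beside 46.9% of all genes. Sult1b1 is in the counts of 11, 8, 9 and 17, and Sult1a1 in those of 9 and 17. Both passed the filter only through MPC, the line where they are higher. Without MPC replicate 3, 17 of 26 tested members were lower and 2 higher, beside 3227 lower and 3020 higher of 11896 genes in the same fit. These lower members included Sult1a1, Sult1b1 and Gstm3. Gstm3 had 22 and 10 counts in the remaining MPC libraries and 0, 1 and 1 in MPC-PTX. It thus passed that filter only through MPC, the line where it is higher, and its call adds no support. With at least 10 counts required in every library, 10 of 20 members were lower and 2 higher, beside 1737 and 1256 of 11109 genes.

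**Figure D1:**
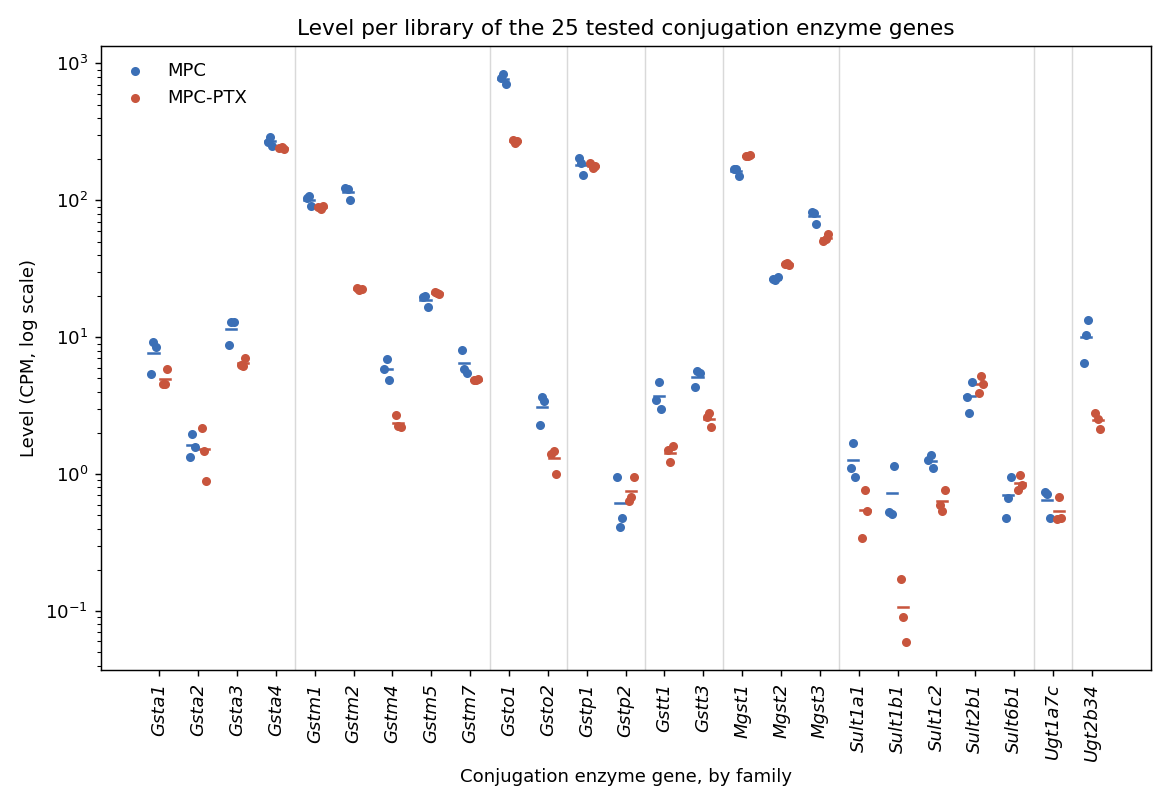
Level of each tested conjugation enzyme gene in each library, in CPM on a log scale, with genes grouped by family. Points are libraries (blue MPC, red MPC-PTX) and short bars are means. Gsto1 and Gstm2 separate the lines at high levels, and Mgst1 and Mgst2 are the called genes with MPC-PTX above MPC.

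**Figure D2:**
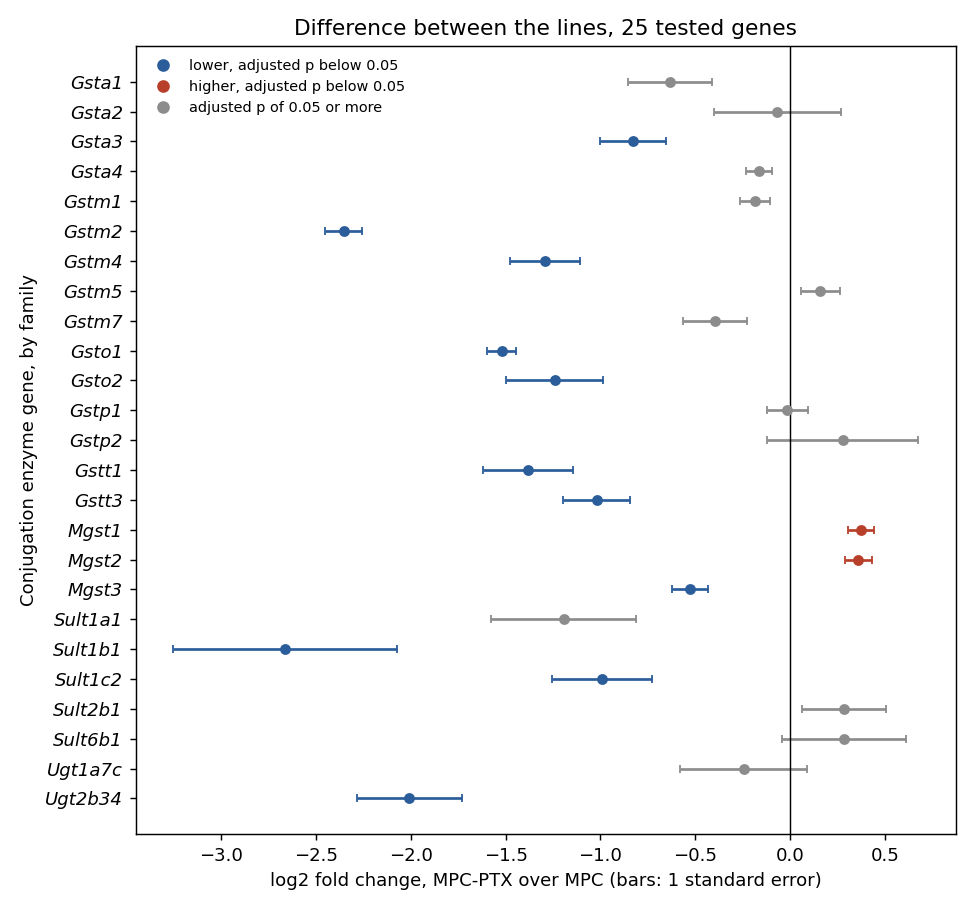
Log2 fold change of MPC-PTX over MPC for the 25 tested genes, with bars of 1 standard error from edgeR. Blue and red mark an adjusted p under 0.05, with 11 genes to the left of 0 and 2 to the right. Grey marks the other 12.

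Both omega class genes fell. Gsto1 (ENSMUSG00000025068), which encodes a thioltransferase with dehydroascorbate reductase activity, had the highest level of all members in MPC. It measured 783, 832 and 711 CPM in the MPC libraries and 277, 261 and 272 CPM in the MPC-PTX libraries. All MPC libraries lay above all MPC-PTX libraries. The means were 775 ± 61.1 and 270.1 ± 8.49 CPM (± SD over 3 libraries, as for all means below). The log2 fold change was -1.52 (SE 0.08, adjusted p = 2.73e-05). Gsto2, its neighbour on chromosome 19 and a dehydroascorbate reductase as well, was far less abundant. It measured 2.28, 3.66 and 3.41 CPM in MPC and 1.41, 1.49 and 1.01 CPM in MPC-PTX, again without overlap. Its log2 fold change was -1.24 (SE 0.26, adjusted p = 0.0105). Gsto1 lies at 47854970 to 47864790 and Gsto2 at 47865534 to 47886324 (GRCm38). Of the 13 other tested genes within 1 Mb of Gsto1, 3 were higher and 1 was lower, with a median of 0.09. Over all tested genes, 14.1% were higher and 15.6% lower, so the share of calls near Gsto1 was close to that over all genes.

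The mu class genes, which conjugate epoxides and other electrophiles, differed within a single cluster on chromosome 3. Gstm2 (ENSMUSG00000040562, at 107981702 to 107986453, minus strand) was at 123, 122 and 101 CPM in MPC and at 22.9, 22.2 and 22.3 CPM in MPC-PTX. The lines were far apart, with a log2 fold change of -2.35 (SE 0.10, adjusted p = 1.49e-05). Gstm4, at the end of the cluster, was at 5.84, 6.91 and 4.85 CPM in MPC and at 2.69, 2.25 and 2.20 CPM in MPC-PTX. It fell by 1.29 on the log2 scale (SE 0.18, adjusted p = 0.00235), and its lines did not overlap either. Gstm1 lies between these genes and did not pass the test. It averaged 101 ± 8.96 CPM in MPC and 89.0 ± 2.20 CPM in MPC-PTX (log2 fold change -0.18, SE 0.08, adjusted p = 0.133), and its lines overlapped. Gstm5, at the other end of the cluster and with matches to all 3 motifs in the window shown above, averaged 18.8 ± 1.97 CPM in MPC and 21 ± 0.351 CPM in MPC-PTX (log2 fold change 0.16, SE 0.10, adjusted p = 0.276). Its MPC-PTX libraries were all above its MPC libraries. Gstm7 averaged 6.46 ± 1.36 and 4.90 ± 0.0318 CPM (log2 fold change -0.39, SE 0.17, adjusted p = 0.124). For Gstm7, all MPC-PTX libraries were below all MPC libraries.

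Gstm3, next to Gstm2, was left out by the filter. Its counts were 22, 10 and 9 in MPC and 0, 1 and 1 in MPC-PTX, a ratio of 21.1 after scaling to library totals (exact 95% interval 5.48 to 180, counting error only). Tested without the filter it had an adjusted p of 0.00483 in edgeR, and in DESeq2 of 0.00263. Gstm6, between Gstm7 and Gstm3, had 17 counts in MPC and 10 in MPC-PTX, a ratio of 1.75 (0.757 to 4.28). The order along the chromosome was thus Gstm5, Gstm7, Gstm6, Gstm3, Gstm2, Gstm1 and Gstm4, with calls at Gstm2 and Gstm4 and none at Gstm1 when all libraries were used. Without MPC replicate 3, Gstm1 (-0.31, adjusted p = 0.00122) and Gstm7 (-0.55, adjusted p = 0.0187) were called lower too, and Gstm5 was at 0.02 (adjusted p = 0.834). The 30 other tested genes within 1 Mb of Gstm2, members excluded, had a median log2 fold change of -0.02, with 2 higher and 7 lower. Called genes were 29.7% of all tested genes (14.1% higher and 15.6% lower), close to the share among these neighbours. Of the windows of 50 bases in the longest Gstm1 transcript, 23.1% also occurred in transcripts of other genes. The shares were 9.36% for Gstm2, 28.8% for Gstm3 and 0% for Gstm4, Gstm5 and Gstm7, so reads of Gstm1 and Gstm3 in particular could have been split by the authors' counting.

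Both measurable theta class genes fell. Theta enzymes act on small halogenated compounds. Gstt1 was at 3.51, 4.74 and 2.98 CPM in MPC and at 1.495, 1.22 and 1.60 CPM in MPC-PTX. Its log2 fold change was -1.38 (SE 0.24, adjusted p = 0.00503). Gstt3, next to it on chromosome 10, was at 4.30, 5.67 and 5.53 CPM in MPC and at 2.61, 2.80 and 2.20 CPM in MPC-PTX. The libraries of the lines did not overlap for either gene. Gstt3 changed by -1.02 (SE 0.18, adjusted p = 0.00509). The other tested genes within 1 Mb leaned the same way: 14 of 19 had a negative log2 fold change, 8 were lower and 1 higher, with a median of -0.35 beside -0.18 for the 549 tested genes of chromosome 10. Of all 11795 tested genes, 5284 had a negative log2 fold change, 15.6% were lower and 14.1% higher. Gstt2 and Gstt4 had fewer than 10 counts each. Of the Gstt3 windows, 26.0% occurred in the readthrough model Gm20441.

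In the alpha class, whose enzymes reduce lipid hydroperoxides and conjugate 4-hydroxynonenal, the abundant gene did not pass the test and a minor gene fell. Gsta4, the 4-hydroxynonenal conjugating member, was at 268, 291 and 251 CPM in MPC and at 242, 245 and 237 CPM in MPC-PTX. Every MPC-PTX library lay below every MPC library, but the log2 fold change of -0.16 (SE 0.07) had an adjusted p of 0.120. Without MPC replicate 3 it was -0.27, with an adjusted p of 0.00233. Gsta3 averaged 11.5 ± 2.40 CPM in MPC and 6.52 ± 0.479 CPM in MPC-PTX. It fell by 0.83 on the log2 scale (SE 0.17, adjusted p = 0.0113), a call lost without MPC replicate 2 (adjusted p = 0.0503), MPC-PTX replicate 1 (0.0539) or MPC-PTX replicate 2 (0.0556). Gsta1 averaged 7.68 ± 2.03 and 4.98 ± 0.728 CPM (adjusted p = 0.0711), and Gsta2 averaged 1.62 ± 0.317 and 1.52 ± 0.644 CPM (adjusted p = 0.900). These paralogs share much sequence, since 89.7% of Gsta1 windows and 64.2% of Gsta2 windows occurred in other genes, and their counts are uncertain.

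Gstp1, the pi class gene that is abundant in many tumours, showed no difference beyond its spread. It measured 203, 188 and 152 CPM in MPC and 188, 171 and 179 CPM in MPC-PTX. The MPC range enclosed all 3 MPC-PTX libraries, and the log2 fold change was -0.01 (SE 0.11, adjusted p = 0.932). Without MPC replicate 3, its lowest library, the change was -0.18 and the adjusted p 0.0195. Gstp2 averaged 0.616 ± 0.296 and 0.756 ± 0.170 CPM (adjusted p = 0.632). The pair is hard to separate, as 62.3% of Gstp1 windows occurred in Gstp2. Gstk1, the mitochondrial kappa class gene, had 4 counts in all 6 libraries together.

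The microsomal genes moved in both directions. Mgst1 (ENSMUSG00000008540), a membrane transferase and peroxidase, was at 168, 169.8 and 149 CPM in MPC and at 209.6, 210.4 and 213 CPM in MPC-PTX. All MPC-PTX libraries were higher, with a log2 fold change of 0.38 (SE 0.07, adjusted p = 0.00610). Mgst2, which can make leukotriene C4, averaged 26.7 ± 0.628 and 34.3 ± 0.525 CPM. It rose by 0.36 on the log2 scale (SE 0.07, adjusted p = 0.00965), a call lost without MPC-PTX replicate 1 (adjusted p = 0.0564) or 2 (0.0602). Mgst3, a relative with peroxidase activity, was at 81.6, 80.9 and 67.5 CPM in MPC and at 50.6, 52.5 and 56.5 CPM in MPC-PTX. It fell by 0.53 (SE 0.10, adjusted p = 0.00646), and the lines did not overlap. None of the 3 genes shared a window of 50 bases with another gene. They stand apart in the genome, with Mgst1 on chromosome 6, Mgst2 on chromosome 3 and Mgst3 on chromosome 1.

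The summed level of all 25 GST and microsomal genes was 1819, 1890.9 and 1613 CPM in MPC and 1162, 1129.6 and 1153 CPM in MPC-PTX. The lines did not overlap, and their means were 1774 ± 144 and 1148 ± 16.7 CPM. Of the difference of 626 CPM, Gsto1 made up 505 CPM (80.7%) and Gstm2 92.5 CPM (14.8%). Gsto1 went from 43.7% of the sum in MPC to 23.5% in MPC-PTX, while Mgst1 went from 9.17% to 18.4%, Gsta4 from 15.2% to 21.02% and Gstp1 from 10.2% to 15.6%. Per exon length (RPKM, the CPM divided by exon length in kilobases), the order in MPC was Gsto1 (656), Gsta4 (276), Gstp1 (221), Gstm2 (96.5) and Mgst1 (88.6). In MPC-PTX the order was Gsta4 (247), Gsto1 (228.5), Gstp1 (218), Mgst1 (115) and Gstm1 (65.1), with Gstm2 at rank 9 (18.9). Some neighbours in these orders had overlapping ranges over libraries: Gstm2 (84.4 to 103 RPKM) and Mgst1 (81.4 to 92.6 RPKM) in MPC, and Gsto1 (221 to 235 RPKM) and Gstp1 (208 to 229 RPKM) in MPC-PTX. In each of these libraries, however, Gstm2 was above Mgst1 and Gsto1 above Gstp1.

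**Figure D3:**
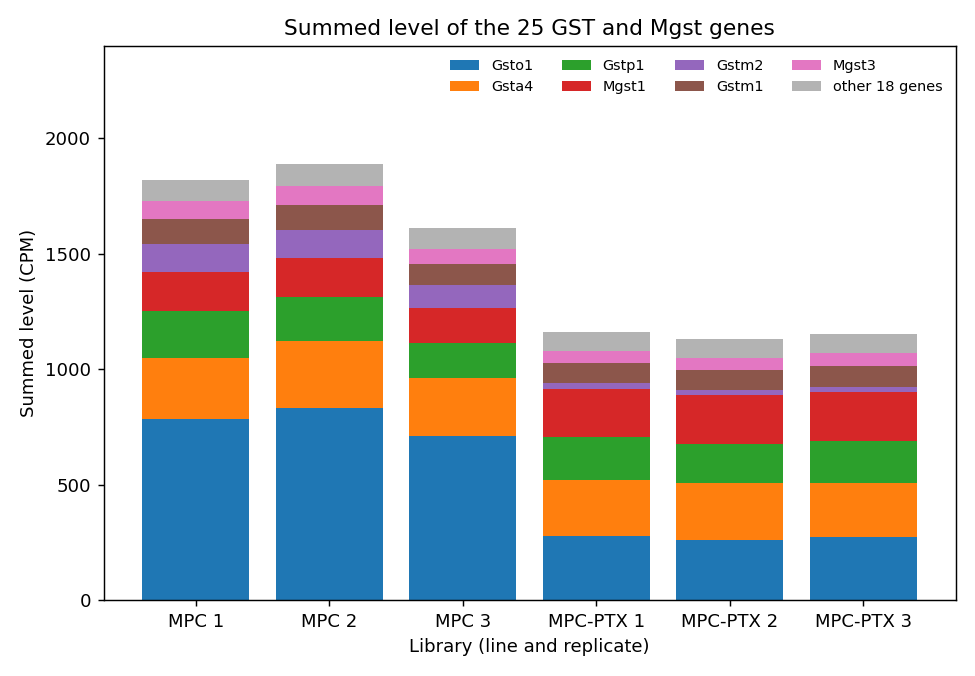
Summed level of the 25 GST and microsomal GST genes in each library, in CPM, stacked by gene. The 3 MPC bars reach 1613 to 1890.9 CPM and the 3 MPC-PTX bars 1129.6 to 1162 CPM, and the Gsto1 segment makes up most of the gap.

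Little UGT RNA was present. Only Ugt2b34 and Ugt1a7c of 19 UGT genes passed the filter. Ugt2b34, a glucuronosyltransferase of the 2B subfamily on chromosome 5 (ENSMUSG00000029260, 86889767 to 86906937, minus strand), was at 6.54, 10.5 and 13.3 CPM in MPC and at 2.82, 2.52 and 2.14 CPM in MPC-PTX. The MPC libraries were spread but all higher, and the log2 fold change was -2.01 (SE 0.28, adjusted p = 0.00198). The 4 other tested genes within 1 Mb of it had a median of 0.15, and none of them was called, beside 29.7% of all tested genes. Ugt1a7c averaged 0.649 ± 0.146 and 0.541 ± 0.118 CPM (log2 fold change -0.24, SE 0.34, adjusted p = 0.616). Genes of the Ugt1a locus share their last exons, and 69.3% of Ugt1a7c windows occurred in other genes.

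Untested genes of the Ugt1a6 pair had more counts in MPC-PTX. Ugt1a6b had 5, 0 and 0 counts in MPC and 11, 11 and 7 in MPC-PTX, a ratio of 5.63 (exact interval 2.16 to 18.6). Tested without the filter, its adjusted p was 0.0859 in edgeR, and in DESeq2 it was 0.124. All of its MPC counts came from replicate 1. Without that library no MPC count was left, and it passed the filter only through MPC-PTX and was called higher. That call follows from the omission and adds no support. Ugt1a6a had 3 and 12 counts in the lines, a ratio of 3.88 (1.05 to 21.4). All windows of Ugt1a6a and 80.7% of those of Ugt1a6b were shared with other genes, so these counts cannot be given to a single gene. Ugt2b35 had 7 counts in MPC and 3 in MPC-PTX. The summed UGT level was 11.1 ± 3.05 CPM in MPC and 3.82 ± 0.380 CPM in MPC-PTX, most of it from Ugt2b34.

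Sulfotransferase RNA was low as well, and 5 of 21 genes were tested. Sult1b1, which sulfates thyroid hormones and small phenols, had 10, 10 and 24 counts in MPC and 4, 2 and 1 in MPC-PTX. The lines did not overlap, and the ratio of summed counts was 6.47 (exact interval 2.89 to 17.0). Its log2 fold change was -2.66 (SE 0.59, adjusted p = 0.0139), with the call lost without MPC-PTX replicate 2 (adjusted p = 0.0625) or 3 (0.0569). It passed the filter only through MPC, the line where it is higher, and was not tested where at least 10 counts were required in every library. Sult1c2, of the 1C subfamily, averaged 1.26 ± 0.144 and 0.637 ± 0.121 CPM. It fell by 0.99 (SE 0.26, adjusted p = 0.0271), but 6 alternatives ended that call: DESeq2 (0.0927), the replicate block (0.0650) and leaving out MPC replicate 2 (0.0885) or MPC-PTX replicate 1 (0.105), 2 (0.114) or 3 (0.0549). Sult1a1, the phenol sulfotransferase, averaged 1.26 ± 0.391 and 0.548 ± 0.213 CPM without overlap, and its adjusted p was 0.0530.

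Sult2b1, the cholesterol sulfotransferase, was the most abundant Sult gene. It was at 3.67, 2.78 and 4.71 CPM in MPC and at 3.89, 5.18 and 4.57 CPM in MPC-PTX, with overlapping lines (log2 fold change 0.29, SE 0.22, adjusted p = 0.367). Sult6b1 averaged 0.703 ± 0.243 and 0.864 ± 0.115 CPM (adjusted p = 0.546). Of the untested genes, Sult5a1 had 2 and 9 counts and Sult1d1 had 6 and 5. Summed over the family, MPC held 7.81 ± 1.06 CPM and MPC-PTX 6.94 ± 0.923 CPM, ranges that overlapped.

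Genes that feed these reactions moved in both directions. Of the 16 tested genes for cofactor supply, 8 were lower and 3 higher, with a median of -0.24. The shares over all tested genes were 15.6% lower and 14.1% higher. Papss2, which makes the sulfate donor PAPS, was at 5.42, 7.99 and 8.94 CPM in MPC and at 0.897, 1.17 and 1.43 CPM in MPC-PTX (log2 fold change -2.69, SE 0.26, adjusted p = 0.000432). Its paralog Papss1 was more abundant and fell by 0.21 (adjusted p = 0.0268). Ugdh, which makes UDP-glucuronic acid, averaged 246 ± 22.7 and 138 ± 5.11 CPM and fell by 0.83 (adjusted p = 0.000431). Slc7a11, the cystine importer that feeds glutathione synthesis, was at 25.3, 15.3 and 36.8 CPM in MPC and at 114, 130.4 and 129 CPM in MPC-PTX. It rose by 2.27 (SE 0.29, adjusted p = 0.00182), and no library of one line reached the other. Within glutathione synthesis itself, Gclm (-0.35) and Gss (-0.68) were lower, and Gclc (0.25) was higher. The sulfate transporter gene Slc26a1 changed by -1.56 (adjusted p = 0.0181), a call lost without MPC-PTX replicate 1 (adjusted p = 0.0591), 2 (0.0782) or 3 (0.0539). Slc26a1 passed the filter only through MPC, the line where it is higher. It was not tested where at least 10 counts were required in every library.

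Exporters of conjugates were tested for 7 genes, of which 3 were lower and 0 higher (median -0.11), beside 15.6% and 14.1% of all tested genes. Abcc3, which exports glucuronides and glutathione conjugates, was at 225, 267 and 242 CPM in MPC and at 79.96, 83.2 and 83.7 CPM in MPC-PTX (log2 fold change -1.57, SE 0.08, adjusted p = 2.73e-05). Abcg2, which exports sulfates and glucuronides, had 25, 24 and 25 counts in MPC and 1, 0 and 1 in MPC-PTX, a ratio of 38.1 (exact interval 10.2 to 320). Abcg2 passed the filter only through MPC, the line where it is higher. It was not tested where at least 10 counts were required in every library. Abcc5 fell by 0.79 (adjusted p = 0.00106). Abcc1, the classical exporter of glutathione conjugates, averaged 155 ± 5.89 and 143 ± 2.63 CPM (log2 fold change -0.11, SE 0.06, adjusted p = 0.211).

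Of the 8 tested genes for deconjugation and conjugate processing, 2 were lower and 1 higher (median -0.04), beside 15.6% and 14.1% of all tested genes. Acy3, a deacylase of mercapturates, changed by -1.43 (adjusted p = 0.000908) and Ggt6, of the gamma-glutamyltransferase family, by -1.10 (adjusted p = 0.00164). Gusb, the lysosomal glucuronidase, rose by 0.35 (adjusted p = 0.00792). Among 7 other conjugation and detoxification enzymes, Nqo1 (-0.77, adjusted p = 0.00504) and Ephx1 (-0.28, adjusted p = 0.0379) were lower and 0 were higher, with a median of -0.16. That share of calls was near the 29.7% over all tested genes. The 8 tested relatives of the GST and UGT families outside the name rule had 2 higher, Clic4 (0.63) and Alox5ap (0.71), and 1 lower, Clic1 (-0.39), with a median of -0.01. Over all tested genes, 14.1% were higher and 15.6% lower.

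Of the 12 tested regulators of conjugation genes, 3 were lower and 0 higher (median -0.08), a share of calls near the 29.7% over all tested genes. Hnf4a, a nuclear receptor of liver and gut epithelium that is known to drive many UGT and GST genes, was at 49.3, 74.3 and 73.2 CPM in MPC and at 1.03, 0.857 and 0.951 CPM in MPC-PTX. Its log2 fold change was -6.11 (SE 0.23, adjusted p = 9.23e-06), with the lines far apart. Cdx2, an intestinal homeobox factor, changed by -1.06 (adjusted p = 0.00155) and Keap1, which retains and degrades Nrf2, by -0.30 (adjusted p = 0.0179). Nfe2l2, which encodes Nrf2, averaged 155 ± 6.68 and 147 ± 1.80 CPM (log2 fold change -0.08, SE 0.06, adjusted p = 0.372). Ahr, the receptor that binds xenobiotic response elements, averaged 48.9 ± 13.9 and 48.3 ± 2.40 CPM (log2 fold change -0.02, SE 0.19, adjusted p = 0.948). Over the 6 lists, 19 of 58 tested genes were lower and 6 higher, beside 15.6% and 14.1% of all tested genes. With at least 10 counts required in every library, 17 of 53 list genes were lower and 4 higher, beside 1737 and 1256 of 11109 genes.

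**Figure D4:**
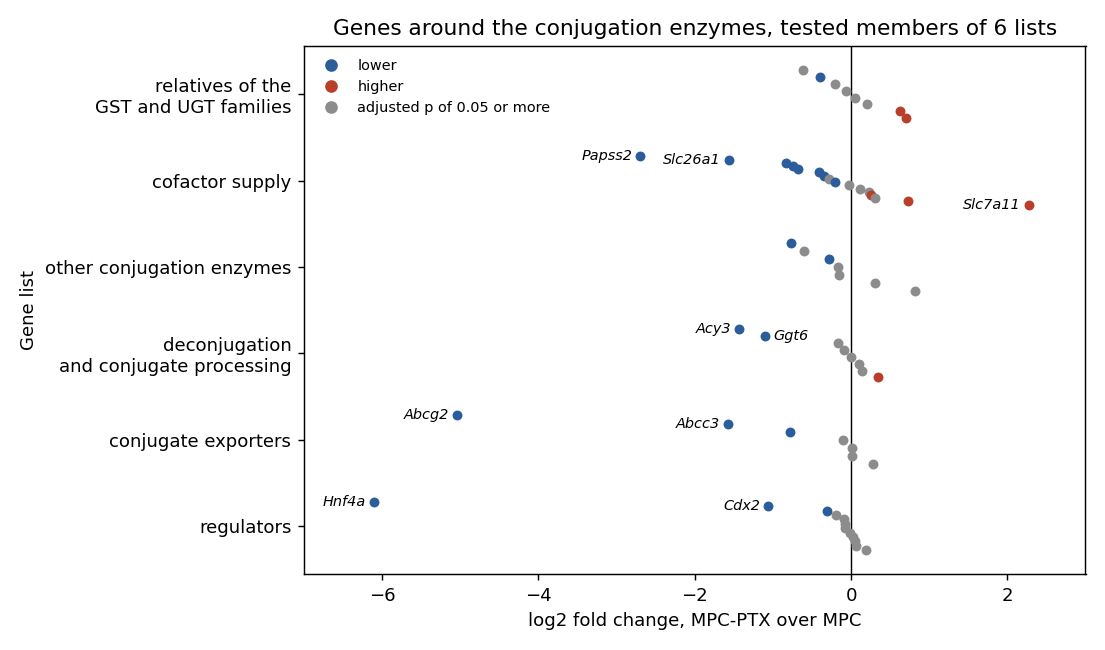
Log2 fold change of MPC-PTX over MPC for the 58 tested genes of 6 lists around the conjugation enzymes, 1 point per gene. Blue and red mark genes lower and higher at an adjusted p under 0.05, grey the rest, and names are given for called genes beyond 1 in size. Hnf4a and Abcg2 lie farthest to the left and Slc7a11 farthest to the right.

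The labelled tissue was checked against markers. Keratin 8, 18 and 19 genes and Epcam were abundant in both lines, while the stomach genes Tff1, Tff2, Gkn2 and Pgc had no count in any library. Of 16 gastric epithelium markers, 7 were tested, 6 of them lower and 1 (Bhlha15, 1.68) higher, beside 15.6% and 14.1% of all tested genes. Ctse (-7.54) and Anxa10 (-8.62) changed most. The summed level of the list was 7329.5 to 8430.0 CPM in MPC and 3989.5 to 4095.3 CPM in MPC-PTX. This list moved with the conjugation enzymes, and its part in their change was not tested. None of the 8 hepatocyte markers was tested, and their summed level was 0.266 to 0.980 CPM in MPC and 0 to 0.171 CPM in MPC-PTX, with Cyp3a11 and Serpina1a at 0. None of the 5 enterocyte markers was tested either (0.903 to 1.49 and 0.356 to 0.769 CPM). Fibroblast markers summed to 9.83 to 10.9 and 8.63 to 9.92 CPM, leukocyte markers to 11.2 to 12.8 and 9.80 to 10.6 CPM, and endothelial markers to 2.58 to 2.98 and 2.21 to 2.79 CPM. Of these 3 lists, 4 genes were tested and Col1a1 (-0.80) was called, beside 29.7% of all tested genes. In bulk RNA, fewer cells of a type and less RNA per cell cannot be told apart.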

How the data were processed

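Poly-A libraries were sequenced from 3 samples of each line. Per the labels and the study's methods, the authors cleaned reads with fastp 0.22.0, aligned these with HISAT2 and deposited raw counts per gene, neither normalized nor pooled. The genome build, annotation, counting tool, use of strand and treatment of reads with several positions are not given in the sources used here, so counts of paralogs and of overlapping genes are uncertain. The 6 sample tables held the same values as the series table.

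Of all genes, 11795 passed the edgeR 4.0.16 function filterByExpr (grouped by line, minimum count 10). They were scaled by TMM and fitted with robust glmQLFit and glmQLFTest in R 4.3.3. Benjamini-Hochberg adjustment of p-values covered every tested gene. No covariate was used. Levels are TMM-scaled CPM, and SE is the log2 fold change divided by the square root of F. Ratios of small counts carry exact (Clopper-Pearson) 95% intervals. Such intervals and the floor of 3 counts describe counting error alone: no molecular identifiers were used, so reads are not separate molecules. Ensembl IDs matched 65 of 65 members to GENCODE M21 (GRCm38), which gave positions, exon lengths and windows of 50 bases.

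Members and lists were chosen with earlier results of these data known. Named were all tested members, untested members with at least 10 counts, and list genes with an adjusted p under 0.05 and an absolute log2 fold change above 1. Full values per library were given for members past both limits and for the most abundant member of a family. Other list genes and other values per library were added after their values were seen. DESeq2 1.42.0, other scalings and filters, the replicate block, a GC and length correction and leaving out each library were alternatives. The transporter named Rlip76 and the sulfatase Sts matched no row and were not analysed here.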

Additional observations from a re-analysis of the deposited data

How the results depend on the processing

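Of the 13 called members, 9 kept their call in all 13 alternatives: Gstm2, Gstm4, Gsto1, Gsto2, Gstt1, Gstt3, Mgst1, Mgst3 and Ugt2b34. Gsta3, Mgst2, Sult1b1 and Sult1c2 lost it in the alternatives named with their values, and Sult1b1 was not tested where at least 10 counts were required in every library. Sult1a1 (4 alternatives) and Gsta1 (3) were called only in some alternatives, and 6 tested members in none. The sign changed with the setting for Gstp1 (5 alternatives, range -0.18 to 0.07) and Gsta2 (2 alternatives, -0.42 to 0.18). Leaving out each library in turn gave 9 to 17 members lower and 1 to 3 higher. The most lower members came without MPC replicate 3 (17 lower, among them Gsta4, Gstm1, Gstm7 and Gstp1). Gstm3 was counted as lower there and without each MPC-PTX replicate. In those fits it passed the filter only through MPC, the line where it is higher, so its calls add no support. The 3 higher came without MPC replicate 1 and included Ugt1a6b, whose MPC counts all lay in that library. Over all genes the same omissions gave 803 to 3020 higher and 1077 to 3227 lower, and over the 6 lists 3 to 8 higher and 12 to 25 lower. With all libraries these counts were 1668, 1841, 6 and 19. The highest of each came without MPC replicate 3 (for the lists' higher genes also without MPC replicate 1), and the low counts over all genes came without MPC replicate 2 (934 and 1222) or MPC-PTX replicate 1 (803 and 1122), 2 (827 and 1077) or 3 (840 and 1100). Correcting each library for GC content and length gave 2583 genes higher and 2482 lower, and the cause was not tested.

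With the replicate block, 1787 genes were higher and 1717 lower, 2 members were higher and 12 lower, and 5 list genes were higher and 18 lower. Same-numbered libraries had correlations of 0.15, -0.02 and 0.17 between their deviations, and that of replicate 3 (0.17) was the highest between the lines. MPC replicate 2 correlated best with MPC-PTX replicate 1 (0.15), and MPC replicate 3 correlated with MPC-PTX replicate 1 at -0.23. Spearman's rho with GC content fell from replicate 1 to replicate 3 in both lines. Whether same-numbered libraries share an effect was not tested. The filter on low counts left 40 of 65 members untested, and DESeq2 or edgeR without the filter gave a value for 41 of the 65.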
